A study of Homo sapiens with 6 samples.

Results

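The NF-kB genes followed here were the subunits NFKB1, NFKB2, RELA and RELB, the inhibitors NFKBIA and TNFAIP3, the adaptors TRAF1, BIRC3 and IRAK2, and TNFAIP2. They were picked by name, 10 of the 58735 genes in the table, with the differences between these same libraries already known, so their values are a description and carry no test. The cells were A549, an established human lung adenocarcinoma line. One group was transfected with a ZBTB16 plasmid and labelled as ZBTB16 overexpression, and the other received the empty vector pcDNA3.1 and was labelled WT, with 3 libraries in each group. All 6 libraries therefore come from transfected cells of a single line, and neither the time after transfection nor a selection step is given in the labels. ZBTB16 encodes a zinc finger protein with a BTB domain that mostly represses its targets, and the series title is about DNA replication and the cell cycle, not about NF-kB.

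NF-kB is a family of dimeric transcription factors held inactive in the cytoplasm by IkB proteins. Cytokine and pattern recognition receptors act through TRAF, IRAK and cIAP proteins on a kinase complex that marks IkB for destruction, after which the dimers enter the nucleus. Several of the genes they switch on encode brakes of the same pathway, NFKBIA and TNFAIP3 above all, and in epithelial cells they also switch on chemokines and survival genes.

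The libraries held 15478010 to 17319971 reads recovered from the deposited FPKM (reads per gene, corrected for the length of the gene and the depth of the library), with mitochondrial transcripts at 6.02% to 6.54%. ZBTB16 stood at 426, 488 and 456 FPKM in the ZBTB16 libraries, against 0 reads in each empty-vector library, which allows up to 3 reads over that group or 0.00940 FPKM. The epithelial markers EPCAM, KRT8, KRT18, KRT7 and CDH1 summed to 1737 to 1821 FPKM with ZBTB16 and to 1785 to 1929 FPKM with empty vector. EPCAM itself was at 1.05 to 1.47 FPKM. The 5 alveolar type 2 markers summed to 17.1 to 18.6 FPKM with ZBTB16 and to 15.4 to 16.7 FPKM with empty vector, so these sums lay apart upwards. The sum came from ABCA3, at 10.3 ± 0.519 FPKM with ZBTB16 and 9.57 ± 0.0783 FPKM with empty vector, and LAMP3, at 7.29 ± 1.26 FPKM with ZBTB16 and 6.25 ± 0.634 FPKM with empty vector (SD, n = 3 each), while SFTPB, SFTPC and NKX2-1 were near 0 in both groups. The part of this shift in the results was not tested. The 8 immune markers summed to 4.39 to 4.42 FPKM with ZBTB16 and to 4.06 to 4.71 FPKM with empty vector, mostly CD14, while CD3D, CD3E and MS4A1 had no read and PTPRC had none in the ZBTB16 libraries. Fibroblast markers summed to 2.14 to 2.46 FPKM with ZBTB16 and 2.14 to 2.48 FPKM with empty vector, and endothelial markers to at most 0.263 FPKM in any library. The extraction text of the labels names retinas, and of the retinal markers CRX and RPE65 had 0 reads in each library, while GNAT1, PDE6B and RCVRN had at most 4 reads in any.

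The promoters are shown because NF-kB factors are known to act on several of these genes through kB sites. RefSeq promoter windows, 250 bases before to 50 after a transcription start in GRCh38.p14, matched 9 of the 10 genes and gave 15 windows. Searched on both strands, the kB decamer consensus had a match in 6 of the 15 windows and in 5 of the 9 genes, namely NFKB1, NFKB2, NFKBIA, TNFAIP3 and BIRC3. Of all 35116 promoter windows 5.91% held a match, and of all 27305 genes with a window 7.09%. Among the 8636 tested protein-coding genes with a window, the nearest background to these genes, it was 9.16%. Genes with several windows have more chances to match. A match is a run of letters and not a proven site, and binding was not measured. Below are the 250 bases upstream of the start, written 5′ to 3′ on the strand of the gene, with matches in capitals.
TNFAIP3, chr6:137867009-137867258, plus strand: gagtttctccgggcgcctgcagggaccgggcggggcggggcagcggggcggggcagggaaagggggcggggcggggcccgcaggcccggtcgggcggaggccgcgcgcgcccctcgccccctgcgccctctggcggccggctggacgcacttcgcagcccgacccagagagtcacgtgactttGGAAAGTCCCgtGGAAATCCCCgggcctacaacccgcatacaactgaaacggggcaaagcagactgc
NFKBIA, chr14:35404750-35404999, minus strand: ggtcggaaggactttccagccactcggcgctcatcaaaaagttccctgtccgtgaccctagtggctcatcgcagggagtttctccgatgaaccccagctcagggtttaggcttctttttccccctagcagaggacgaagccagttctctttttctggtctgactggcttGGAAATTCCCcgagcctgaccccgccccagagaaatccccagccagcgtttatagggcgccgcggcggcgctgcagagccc
BIRC3, chr11:102317234-102317483, plus strand: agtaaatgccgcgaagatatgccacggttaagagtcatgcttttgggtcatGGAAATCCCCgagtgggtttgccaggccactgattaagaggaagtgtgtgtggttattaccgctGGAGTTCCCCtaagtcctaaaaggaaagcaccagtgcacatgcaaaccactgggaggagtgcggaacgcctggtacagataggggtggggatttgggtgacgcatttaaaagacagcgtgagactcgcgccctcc
NFKB1, chr4:102501109-102501358, plus strand: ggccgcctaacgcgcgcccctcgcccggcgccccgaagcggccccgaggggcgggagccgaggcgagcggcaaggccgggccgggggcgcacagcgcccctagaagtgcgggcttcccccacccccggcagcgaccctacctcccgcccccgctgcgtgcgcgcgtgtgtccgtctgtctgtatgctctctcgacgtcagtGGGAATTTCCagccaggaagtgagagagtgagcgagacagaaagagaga
NFKB2, chr10:102394328-102394577, plus strand: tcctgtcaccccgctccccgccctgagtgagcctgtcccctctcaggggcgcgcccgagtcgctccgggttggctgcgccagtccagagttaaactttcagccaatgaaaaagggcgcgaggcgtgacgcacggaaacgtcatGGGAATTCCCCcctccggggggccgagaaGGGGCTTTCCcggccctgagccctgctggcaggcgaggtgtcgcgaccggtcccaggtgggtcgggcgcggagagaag
IRAK2, chr3:10164669-10164918, plus strand: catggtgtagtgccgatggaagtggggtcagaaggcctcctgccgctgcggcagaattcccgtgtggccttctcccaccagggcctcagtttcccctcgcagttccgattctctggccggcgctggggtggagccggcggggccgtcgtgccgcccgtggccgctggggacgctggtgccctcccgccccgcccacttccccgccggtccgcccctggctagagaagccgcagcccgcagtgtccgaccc
RELA, chr11:65662917-65663166, minus strand: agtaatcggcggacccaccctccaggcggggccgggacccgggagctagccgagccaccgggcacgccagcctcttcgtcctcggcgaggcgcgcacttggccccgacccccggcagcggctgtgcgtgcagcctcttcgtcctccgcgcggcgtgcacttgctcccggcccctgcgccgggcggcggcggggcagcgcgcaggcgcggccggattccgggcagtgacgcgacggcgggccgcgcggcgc

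TNFAIP3 held a pair of matches close together, GGAAAGTCCC beginning 67 bases and GGAAATCCCC beginning 55 bases upstream of the RefSeq start, both on the reverse strand. This start, at 137867259, lies downstream of the gene start given below, 137867188. Both matches therefore lie within the gene as placed there. NFKBIA held GGAAATTCCC beginning 81 bases upstream. BIRC3 held GGAAATCCCC at 199 and GGAGTTCCCC at 135 bases, and NFKB1 held GGGAATTTCC at 49 bases. The middle start of NFKB2, the one printed, held GGGAATTCCC at 107 bases, which overlaps a further match shifted by 1 base, and GGGGCTTTCC at 78 bases. Unlike for the other NFKB2 starts, the bases after this start were not found in a transcript of the GENCODE annotation. It also lies downstream of the gene start given below, 102394110. The start of NFKB2 farthest downstream, not printed, held GGGGCTTCCC at 176 and GGGACTTTCC at 21 bases. IRAK2 and the downstream start of RELA are printed as windows without a match, and the upstream start of RELA and the windows of TRAF1 and TNFAIP2 had none either.

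**Figure D1:**
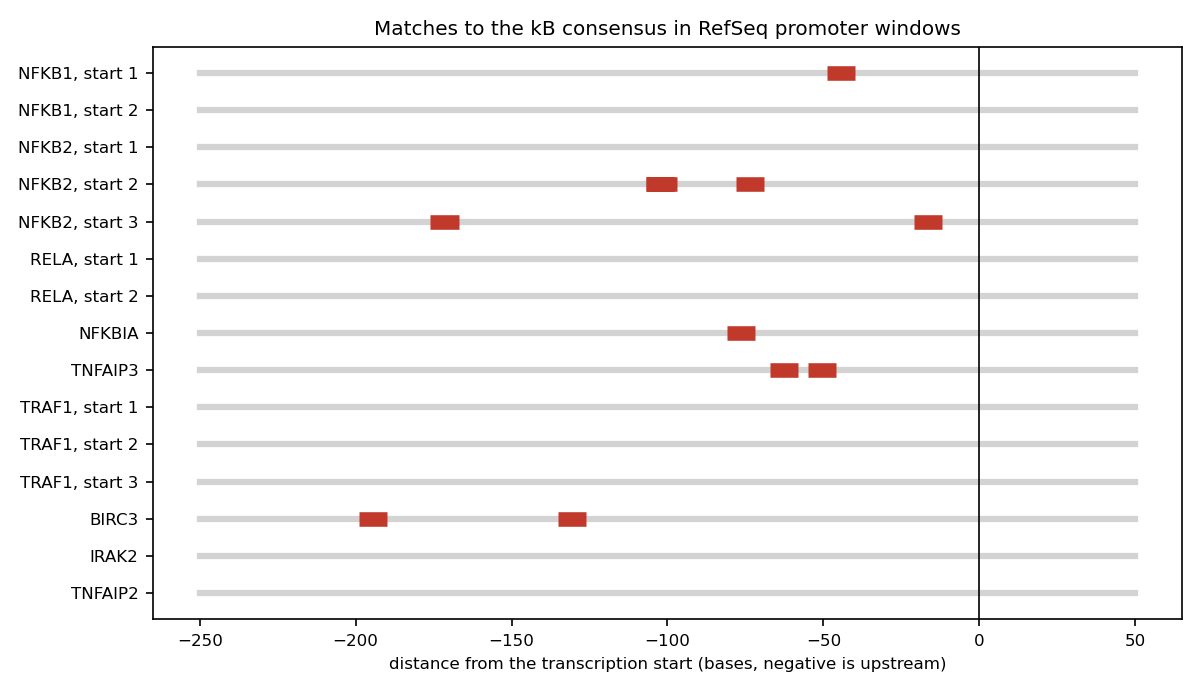
Positions of kB consensus matches (red) in each RefSeq promoter window (grey) of 9 genes, by distance from the transcription start in bases. The match nearest to a start begins 21 bases upstream, at start 3 of NFKB2, and all lie upstream of their start.

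All 10 genes passed the filter of a mean of at least 1 FPKM over the 6 libraries, and all had a positive log2 fold change, taken on log2(FPKM + 1). Positive fold changes made up 48.5% of the 12499 genes tested. In 7 of the 10 the lowest ZBTB16 library lay above the highest empty-vector library, a pattern found in 8.12% of all genes tested, and in 0 of the 10 it was the other way round, as in 8.1% of all. With limma at a Benjamini-Hochberg adjusted p under 0.05, 1 of the 10 was called higher, TNFAIP3, and 0 lower, against 0.064% and 0.008% of all genes tested. At an unadjusted p under 0.05 it was 7 of the 10, against 5.08%. Voom, run in limma on the recovered reads, called 6 of the 10 higher and 0 lower, against 0.816% and 0.832% of all genes. In limma 4 of the 10 were called higher among protein-coding genes, against 0.518%, and 3 among genes with a mean of 5 FPKM or more, against 0.622%. Since the genes were picked on this contrast, nothing is read from these shares. The median log2 fold change of the 10 was 0.26, beside a median of -0.0031 over all genes tested, and their summed level was 407 ± 13.7 FPKM with ZBTB16 and 353 ± 6.02 FPKM with empty vector (SD, n = 3 each). In bulk RNA a change in the share of responding cells and a change in RNA per cell cannot be told apart.

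Among the subunits the precursor-encoding NFKB2 and its partner RELB, both known from the non-canonical branch of the pathway, had groups that lay apart. NFKB1 and RELA, the canonical pair, had groups that overlapped by little. Their lowest ZBTB16 library less the highest empty-vector library was -0.364 FPKM for NFKB1 and -0.138 FPKM for RELA. Empty-vector replicate 1 was the highest of its group for each subunit. A difference between the branches was not tested. RELB (hg38 chromosome 19, 45001430 to 45038198, plus strand), whose protein pairs mainly with the product of NFKB2, was at 30.5, 31.6 and 30.3 FPKM in the ZBTB16 libraries, against 26.3, 23.6 and 23.8 FPKM with empty vector. All 3 ZBTB16 values stood above the empty-vector values, of which replicate 1 was the highest. The means were 30.8 ± 0.689 FPKM with ZBTB16 and 24.5 ± 1.49 FPKM with empty vector (SD, n = 3 each), a difference of 25.4% and a log2 fold change of 0.32 (SE 0.053).

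NFKB2 (chromosome 10, 102394110 to 102402529, plus strand) was at 51.9, 52.4 and 55.1 FPKM with ZBTB16, against 47.8, 42.9 and 44.1 FPKM with empty vector. The groups were apart by 4.07 FPKM between their nearest libraries, with empty-vector replicate 1 again the highest of its group. The difference of means was 18.2%, a log2 fold change of 0.24 (SE 0.053).

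NFKB1 (chromosome 4, 102501329 to 102617302, plus strand), which encodes the precursor of the canonical DNA-binding subunit, was at 9.28, 9.67 and 10.4 FPKM with ZBTB16, against 9.65, 8.18 and 8.55 FPKM with empty vector. Empty-vector replicate 1 lay inside the ZBTB16 range. The difference of 11.3% corresponded to a log2 fold change of 0.14 (SE 0.069).

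RELA (chromosome 11, 65653596 to 65663094, minus strand), the main transactivating subunit, was at 24.7, 23.1 and 24.6 FPKM with ZBTB16, against 23.2, 22.0 and 21.5 FPKM with empty vector. ZBTB16 replicate 2 lay just under empty-vector replicate 1. The difference was 8.66%, a log2 fold change of 0.11 (SE 0.051).

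**Figure D2:**
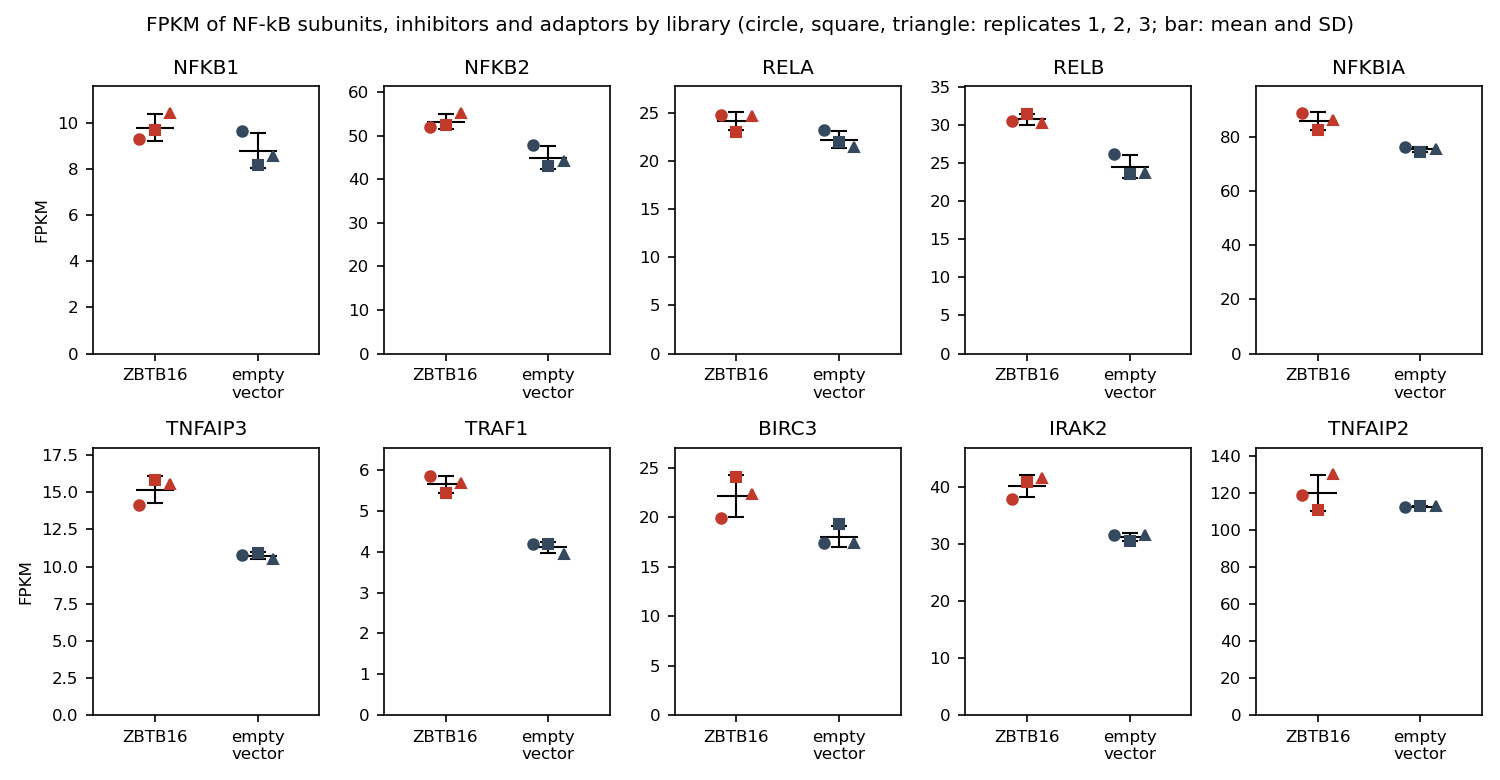
FPKM of the 10 genes in each library, ZBTB16 in red and empty vector in dark blue, with marker shapes for replicates 1 to 3 and the mean with its SD as a bar. Groups lie apart in 7 panels and overlap for NFKB1, RELA and TNFAIP2.

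The feedback inhibitors differed in level and in size of difference. TNFAIP3 (chromosome 6, 137867188 to 137883312, plus strand), the ubiquitin-editing protein A20 that shuts off signalling from receptor complexes, was at 14.1, 15.8 and 15.6 FPKM with ZBTB16, against 10.8, 10.9 and 10.5 FPKM with empty vector. The empty-vector libraries lay close together and every ZBTB16 library was at least 3.20 FPKM above them. The means were 15.2 ± 0.913 FPKM with ZBTB16 and 10.7 ± 0.230 FPKM with empty vector (SD, n = 3 each), a difference of 41.4% and a log2 fold change of 0.46 (SE 0.055), which put it at rank 81 from the top among the 12499 genes tested. These values rest on 1103 to 1368 reads per library with ZBTB16 and 882 to 922 with empty vector. An antisense gene, AL357060.1, covers 1.88% of its exon bases, and the sources used here do not say whether the counting used strand. The call of TNFAIP3 was lost with no filter, with a constant prior and with each of the 6 libraries left out in turn. In each of these settings only 1 to 4 of all genes tested were called higher. Its log2 fold change was 0.43 to 0.51 when a library was left out.

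NFKBIA (chromosome 14, 35401511 to 35404749, minus strand), the IkB alpha protein that holds dimers in the cytoplasm, was the more abundant inhibitor. It stood at 89.0, 82.6 and 86.4 FPKM with ZBTB16, against 76.5, 74.7 and 75.5 FPKM with empty vector. The groups lay 6.05 FPKM apart at their nearest libraries, but the difference of 13.8% was smaller than that of TNFAIP3, with a log2 fold change of 0.18 (SE 0.044). The ratio of TNFAIP3 to NFKBIA within a library, on the FPKM scale, was 0.159, 0.192 and 0.180 with ZBTB16, against 0.141, 0.146 and 0.139 with empty vector, and these ratios did not overlap.

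The adaptors TRAF1 and IRAK2 came next to TNFAIP3 by fold change, while BIRC3 came after RELB. TRAF1 (chromosome 9, 120902393 to 120929173, minus strand), a TRAF protein without a ubiquitin ligase domain that binds TNF receptor complexes, was the lowest of the 10 in level. It was at 5.85, 5.44 and 5.68 FPKM with ZBTB16, against 4.19, 4.18 and 3.96 FPKM with empty vector. This rests on 583 to 635 reads per library with ZBTB16 and 425 to 452 with empty vector. The groups lay apart, with a difference of 37.7% and a log2 fold change of 0.38 (SE 0.056). As a low gene its fold change depends on the pseudocount, and it was 0.45 both at a pseudocount of 0.1 and with voom.

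IRAK2 (chromosome 3, 10164865 to 10243743, plus strand), a kinase-like adaptor of the IL1 and Toll-like receptors, was at 38.0, 41.0 and 41.7 FPKM with ZBTB16, against 31.6, 30.5 and 31.7 FPKM with empty vector. ZBTB16 replicate 1 was the lowest of its group and still 6.34 FPKM above the highest empty-vector library. The difference was 28.6%, a log2 fold change of 0.35 (SE 0.049).

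BIRC3 (chromosome 11, 102317450 to 102339403, plus strand), the ubiquitin ligase cIAP2 that joins TNF receptor complexes and restrains cell death, was at 19.9, 24.1 and 22.3 FPKM with ZBTB16, against 17.4, 19.3 and 17.4 FPKM with empty vector. The groups were apart by only 0.659 FPKM, between ZBTB16 replicate 1 and empty-vector replicate 2. Its difference was 22.6%, a log2 fold change of 0.28 with the largest SE of the 10, 0.073, and leaving out a library moved it between 0.22 and 0.35.

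TNFAIP2 (chromosome 14, 103123442 to 103137439, plus strand) is named for its induction by TNF and is known for membrane protrusions, so it is neither a subunit, an adaptor nor an inhibitor of the pathway. It was the most abundant of the 10, at 119, 111 and 130 FPKM with ZBTB16, against 112, 113 and 113 FPKM with empty vector. ZBTB16 replicate 2 lay below every empty-vector library. The ZBTB16 libraries varied by 8.19% (SD over mean) and the empty-vector libraries by 0.246%. The latter is below the counting error of 1.04% in ZBTB16 replicate 1, the library with the fewest reads of this gene, 9220. The empty-vector libraries held 9442 to 9468 reads of it. The difference of 6.54% was the smallest of the 10, with a log2 fold change of 0.087 (SE 0.059), and leaving out a library moved it between 0.026 and 0.14.

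In order of level per length, the ZBTB16 libraries gave TNFAIP2, NFKBIA, NFKB2, IRAK2, RELB, RELA, BIRC3, TNFAIP3, NFKB1 and TRAF1, and the empty-vector libraries gave the same order. With ZBTB16 the neighbours RELA, at 24.1 ± 0.938 FPKM, and BIRC3, at 22.1 ± 2.10 FPKM, overlapped, and every other pair of neighbours was apart in all libraries. With empty vector no neighbours overlapped, and RELB and RELA came nearest, with 0.404 FPKM between their closest libraries. The order of the differences was another one, since TNFAIP3 and TRAF1, both near the low end by level, had the largest fold changes of the 10 and TNFAIP2, at the top by level, the smallest. It was not the reverse order either. NFKB1, between TNFAIP3 and TRAF1 by level, had a log2 fold change of only 0.14, and IRAK2, at position 4 by level, had 0.35.

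Ratios within a library set each gene beside a relative. These pairs were chosen after the values were seen. RELB over RELA was 1.23, 1.37 and 1.23 with ZBTB16, against 1.13, 1.07 and 1.11 with empty vector, and NFKB2 over NFKB1 was 5.59, 5.42 and 5.29 with ZBTB16, against 4.96, 5.25 and 5.16 with empty vector. The groups lay apart for both ratios, though by little for NFKB2 over NFKB1. TRAF1 over TRAF2, the ligase-bearing TRAF to which it binds, was 0.298, 0.293 and 0.282 with ZBTB16, against 0.206, 0.227 and 0.231 with empty vector. IRAK2 over IRAK1 was 0.359, 0.407 and 0.377 with ZBTB16, against 0.296, 0.305 and 0.323 with empty vector. These groups lay apart as well. BIRC3 over BIRC2, the neighbouring paralogue that begins 7808 bases beyond the end of BIRC3, was 1.65, 1.59 and 1.77 with ZBTB16, against 1.47, 1.34 and 1.41 with empty vector. Other ratios went differently. NFKBIA over RELA was 3.60, 3.58 and 3.51 with ZBTB16, against 3.30, 3.40 and 3.52 with empty vector, and these groups overlapped. NFKB2 over RELB was 1.70, 1.66 and 1.82 with ZBTB16, against 1.82, 1.82 and 1.85 with empty vector, lower on average with ZBTB16 but with overlapping libraries. NFKBIA over NFKBIB was 2.05, 2.04 and 1.92 with ZBTB16, against 1.69, 1.89 and 1.92 with empty vector, with the nearest libraries almost level. The groups of TRAF2, IRAK1 and BIRC2 overlapped. TRAF2 was at 19.5 ± 0.775 FPKM with ZBTB16 and 18.6 ± 1.62 FPKM with empty vector, IRAK1 at 106 ± 4.99 FPKM with ZBTB16 and 102 ± 4.66 with empty vector, and BIRC2 at 13.3 ± 1.64 FPKM with ZBTB16 and 12.9 ± 1.35 with empty vector (SD, n = 3 each).

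**Figure D3:**
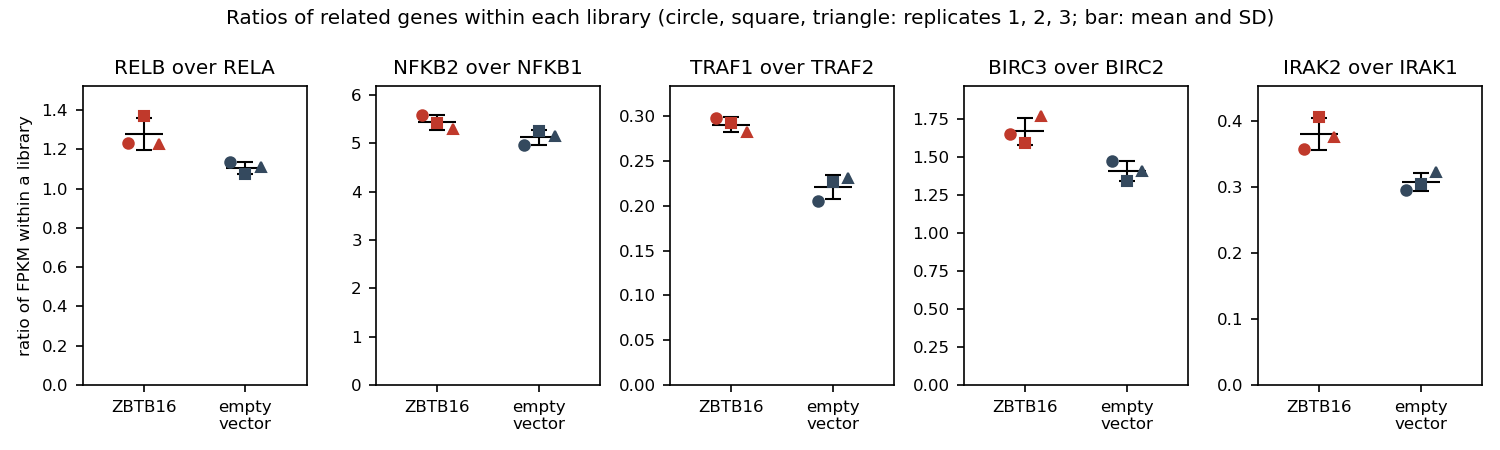
Ratios of FPKM between 5 pairs of related genes within each library, ZBTB16 in red and empty vector in dark blue, with the mean and SD as bars. In all 5 panels the ZBTB16 libraries lie above the empty-vector libraries, by the least for NFKB2 over NFKB1, while NFKBIA over RELA and NFKB2 over RELB, not drawn, overlapped.

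The wider pathway was read from lists of 81 further genes, of which 63 passed the filter. With limma 0 of the 63 were called in either direction, and an unadjusted p under 0.05 was reached by 6 positive and 1 negative, beside 5.08% and 5.17% of all genes tested. Voom called 2 higher, NFKBIZ and TNIP1, beside 0.816% of all genes tested, and limma among protein-coding genes called the same pair, beside 0.518%. The median log2 fold change of the 63 was 0.036 and 46 were positive, beside 48.5% of all genes tested. Groups lay apart upwards in 9 and downwards in 1, beside 8.12% and 8.1%. These lists too were chosen with earlier results of these data known, so nothing is read from these shares.

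Among the other subunits and IkB proteins 0 of 7 tested passed in limma and 1 with voom, at a median of 0.053. NFKBIZ, a nuclear IkB protein that acts as a co-activator, was at 10.9, 11.1 and 11.0 FPKM with ZBTB16, against 9.11, 9.16 and 9.16 FPKM with empty vector. The groups lay apart with little spread, and the log2 fold change of 0.24 (SE 0.045) had a limma adjusted p of 0.0992, which did not pass. With voom its adjusted p was 0.0214. The cytoplasmic inhibitor NFKBIE did not pass at 11.6 ± 0.909 FPKM with ZBTB16 and 9.79 ± 1.31 FPKM with empty vector (SD, n = 3 each, limma adjusted p = 0.422), nor did NFKBIB, the most abundant of the list, at 42.9 ± 2.32 FPKM with ZBTB16 and 41.4 ± 3.26 with empty vector.

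The other feedback and brake proteins had 0 of 13 called in limma, 1 with voom and a median of 0.053. TNIP1, which binds A20 and helps it restrain the pathway, was at 45.2, 44.7 and 45.6 FPKM with ZBTB16, against 39.7, 36.7 and 38.4 FPKM with empty vector. Its groups lay apart, and its log2 fold change of 0.23 (SE 0.045) did not pass, at a limma adjusted p of 0.116, while with voom it was 0.0120. TNIP2, another A20-binding protein, was at 24.8 ± 0.812 FPKM with ZBTB16 and 22.0 ± 1.08 FPKM with empty vector, with groups apart upwards (limma adjusted p = 0.278).

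Upstream components outside the 10 genes had 0 calls in limma and 0 with voom. The adaptors TRAF1, BIRC3 and IRAK2 had been taken into the 10 with this contrast known, and voom called each of them higher. These counts therefore cover only the upstream genes that were left. Of the 10 tested receptors 0 passed, with a median of 0.020. IL1R1, the signalling receptor for IL1, was at 7.71 ± 0.405 FPKM with ZBTB16 and 8.59 ± 0.305 FPKM with empty vector, with groups apart downwards and a limma adjusted p of 0.428. TNFRSF1B, a TNF receptor, was at 1.27 ± 0.301 FPKM with ZBTB16 and 0.917 ± 0.146 with empty vector, a log2 fold change of 0.24 (limma adjusted p = 0.547). Its groups were barely apart upwards, at 1.087 FPKM in ZBTB16 replicate 2 and 1.084 FPKM in empty-vector replicate 3. ZBTB16 replicate 1 was the highest, at 1.62 FPKM. The empty-vector mean alone would not have reached the filter of 1 FPKM. The most abundant receptor, TNFRSF12A, was at 173 ± 12.1 FPKM with ZBTB16 and 165 ± 17.5 with empty vector. Of 23 other adaptors and ubiquitin ligases tested 0 passed, with a median of 0.020. The smallest p values there were those of MYD88, the adaptor upstream of the IRAK proteins, at 27.0 ± 0.936 FPKM with ZBTB16 and 24.6 ± 1.06 FPKM with empty vector (limma adjusted p = 0.422), and of BCL10, which links CARD proteins to the kinase complex, at 3.81 ± 0.211 FPKM with ZBTB16 and 3.26 ± 0.378 with empty vector (limma adjusted p = 0.493). Of the 9 kinases 0 passed, with a median of 0.023. IKBKE, a kinase related to the IkB kinases, was at 6.21 ± 0.305 FPKM with ZBTB16 and 5.46 ± 0.303 with empty vector (limma adjusted p = 0.404). The groups of IKBKE, MYD88 and BCL10 also lay apart upwards. MAP3K7, the kinase that activates the IkB kinases, was at 5.13 ± 0.136 FPKM with ZBTB16 and 5.49 ± 0.253 with empty vector. MAP3K14, the kinase of the non-canonical branch, was at 14.4 ± 0.882 FPKM with ZBTB16 and 14.5 ± 0.155 with empty vector (SD, n = 3 each).

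Ligand transcripts were scarce. Of 10 listed only IL18 reached the filter, at 24.8 ± 0.863 FPKM with ZBTB16 and 23.9 ± 1.26 FPKM with empty vector (limma adjusted p = 0.847). TNF and IL1A, named here after their values were seen, were under the filter and not tested. TNF was at 0.464, 0.698 and 0.172 FPKM with ZBTB16, against 0.357, 0.215 and 0.143 FPKM with empty vector, and these groups overlapped. IL1A was at 0.640, 0.578 and 0.597 FPKM with ZBTB16, against 0.197, 0.339 and 0.254 FPKM with empty vector, with all ZBTB16 libraries above all empty-vector libraries, from 21 to 22 reads with ZBTB16 and 7 to 12 with empty vector.

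**Figure D4:**
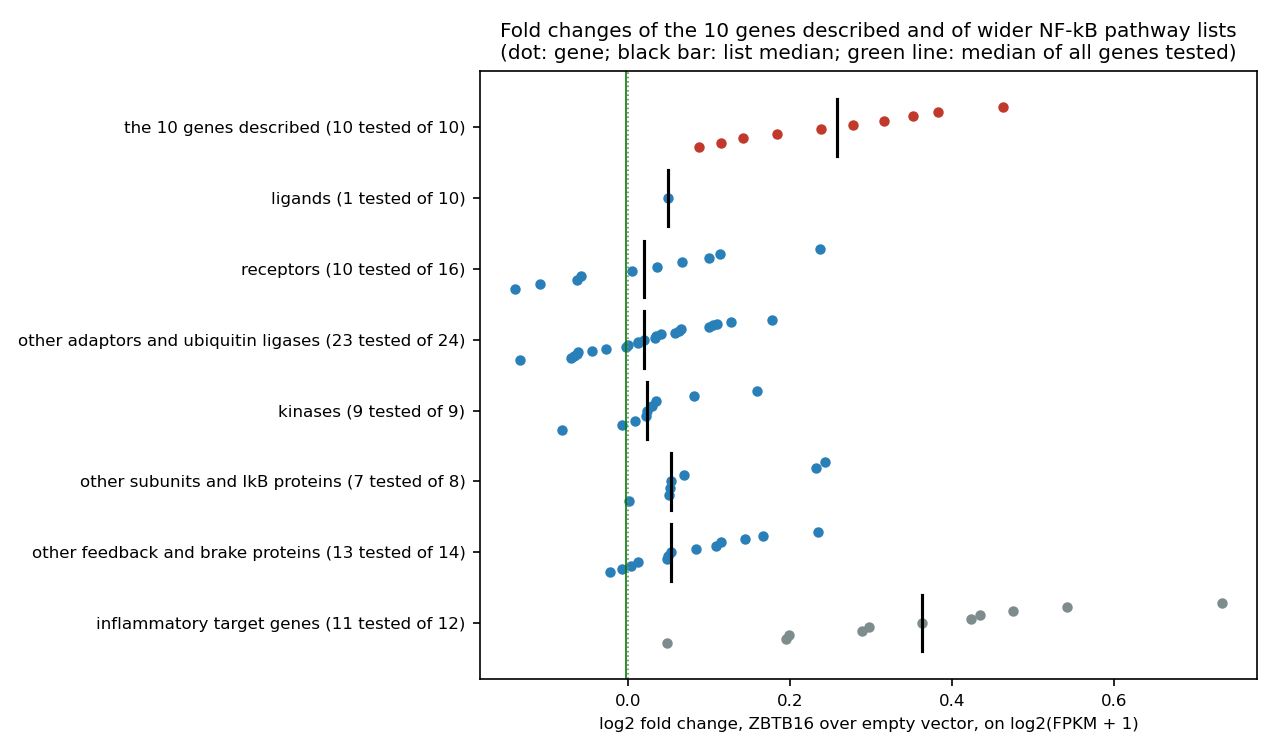
Log2 fold change of ZBTB16 over empty vector, on log2(FPKM + 1), for each tested gene of the 10 described, of 6 wider pathway lists and of inflammatory target genes, with list medians as black bars and the median of all genes tested as a green line. The 10 genes lie between 0.087 and 0.46 with a median of 0.26, and the wider lists have medians from 0.020 to 0.053. The 10 were picked on this contrast and kept out of the wider lists, so nothing is read from that difference.

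Downstream, the chemokines CXCL8 and CXCL1 and the mitochondrial enzyme SOD2 were the 3 of 11 tested inflammatory target genes called higher in limma, beside 0.064% of all genes tested. Voom called 5 of the 11 higher, beside 0.816%, and limma among protein-coding genes also 5, beside 0.518%. The list had a median log2 fold change of 0.36, against -0.0031 over all genes tested. It was chosen with earlier results of these data known, so nothing is read from these shares or from the median. ICAM1, at 2.10 ± 0.183 FPKM with ZBTB16 and 1.56 ± 0.398 FPKM with empty vector, did not pass (limma adjusted p = 0.419). The calls of CXCL1 and SOD2 were lost with any of the 6 libraries left out, and that of CXCL8 with 4 of them, replicates 1 and 2 of ZBTB16 and replicates 1 and 3 of empty vector. All 3 calls were also lost with no filter on low values, each at a limma adjusted p of 0.347, and with a constant prior, at limma adjusted p values of 0.0662 for CXCL8, 0.107 for CXCL1 and 0.107 for SOD2. With a library left out the log2 fold changes ran from 0.68 to 0.78 for CXCL8, from 0.50 to 0.58 for CXCL1 and from 0.44 to 0.51 for SOD2, against 0.73, 0.54 and 0.48 with all 6 libraries.

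The 5 protein-coding genes nearest to TNFAIP3 were SOD2, DDIT3, CXCL2, CRTAC1 and IL6, by Euclidean distance over the 6 libraries, with each gene as log2(FPKM + 1) less its mean in the empty-vector group. Their distances ran from 0.0717 to 0.156 among 10807 genes ranked. SOD2 was at 21.8, 24.0 and 22.6 FPKM with ZBTB16, against 16.5, 16.1 and 15.8 FPKM with empty vector, a profile with ZBTB16 replicate 2 highest as for TNFAIP3. CRTAC1 is a low gene at 1.88 ± 0.271 FPKM with ZBTB16 and 1.03 ± 0.131 FPKM with empty vector (SD, n = 3 each). By the same distance IRAK2 ranked 11, TRAF1 15, RELB 39, BIRC3 55 and NFKB2 124, while NFKBIA ranked 340, NFKB1 664, RELA 1000 and TNFAIP2 1647. This distance keeps the difference between the groups, so genes with a fold change close to that of TNFAIP3 tend to come near. Apart from IRAK2 and TRAF1, these ranks followed the log2 fold change, from 0.38 for TRAF1 to 0.087 for TNFAIP2. A shared profile beyond the group difference was not tested, and none is read from the ranks or the nearest genes.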

How the data were processed

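Bulk RNA sequencing of A549 cells gave 1 table with 3 libraries per group, mapped to samples by their titles, which carry the group and repeat number. The labels do not say whether repeats were separate cultures, so p-values reflect only the variation among these 6 libraries, part of which could be technical. The authors deposited FPKM per gene, and the submitters' processing notes name HISAT2 2.0.5 and hg38. No source used here gives the counter or its strand setting. Multiplied by gene length, 100% of the values above 0 came within 0.01 of a multiple of the smallest such value of their library, and that multiple was taken as the reads per gene. Limits given from reads cover counting error only.

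Genes with a mean of at least 1 FPKM entered a two-sided test in limma 3.58.1 under R 4.3.3, on log2(FPKM + 1) with a trended, robust prior and Benjamini-Hochberg adjustment over all 12499 genes. Fold changes on this scale understate changes of low genes. The steps were tested on simulated reads. Alternatives changed the pseudocount (0.1, 0.5), filter, scaling or prior, used voom on the reads, added the repeat number as a block, or left out a library. The 10 genes and all lists were chosen with earlier results of these data known. Named are the 10, ZBTB16, the cell type markers, up to 4 called genes per wider list or else the 2 with the smallest p, the most abundant gene per list, 5 targets and the 5 genes nearest to TNFAIP3. Gene positions are those of the deposited table, on hg38. Promoter sequences are from RefSeq on GRCh38.p14. Plots came from matplotlib 3.10.9 under Python 3.11.15.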

Additional observations from a re-analysis of the deposited data

How the results depend on the processing

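Each of the 10 genes kept a positive log2 fold change in all 16 alternatives in which it was fitted, TRAF1 being left out at a mean FPKM of at least 5. The number of them called higher was 1 in limma and depended on the setting. It was 0 with no filter on low values, 0 with a constant prior, 0 with each library left out, 2 with quantile scaling, 3 at a mean FPKM of at least 5, 4 among protein-coding genes and 6 with voom, and 0 were called lower in any. Of all genes tested, those called higher were 8 in limma, 1 of 31102 with no filter and 1 with a constant prior. They were 1 to 4 with a library left out and 13 with quantile scaling. At a mean FPKM of at least 5 they were 44 of 7071, among protein-coding genes 56 of 10808, and with voom 102. Of the wider pathway 0 were called in limma and 2 higher at a mean FPKM of at least 5, 2 among protein-coding genes and 2 with voom. MAP3K14 changed sign with a library left out, between -0.055 and 0.021. Why these values moved was not tested. With the repeat number as a replicate block 1 of the 10 and 0 of the wider genes were called, as without it. Same-numbered libraries had residual correlations of 0.067, 0.047 and -0.044, and differently numbered ones had -0.084 to 0.041. No pairing by number was seen, but 3 libraries per group are too few to show that there was none. The count tests with edgeR and DESeq2 were not run. The deposited values are FPKM, and of the methods for reads only voom was used, on the recovered reads.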
